A study of Mus musculus with 11 samples.

Results

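The 41 genes described here encode surface molecules, signaling proteins, cytotoxic effectors and transcription factors of T and NK cells, and they were chosen by name from the 55536 Ensembl genes in the deposited count files. The list ran from the pan-leukocyte antigen gene Ptprc to the residency integrin gene Itgae and was read in all 11 RNA-seq libraries of the series. The libraries came from epidermal cells of the back skin of male CD4Cre R26-tdT mice on a C57Bl6/N background, aged 29 weeks for replicate 1 and 32 weeks for replicates 2 and 3. All mice carried both the Cre transgene under Cd4 regulatory sequences and the tdTomato (tdT) reporter in the ROSA26 locus, so tdT+ cells were those in which Cre had been active at some point in the cell or its ancestors. Cells were sorted into CD49f+CD34+ and CD49f+CD34+SCA-1+ populations (CD49f+CD34+ and SCA-1+ cells below), and each population was split into tdT+ and tdTneg cells. There were 3 libraries of tdT+CD49f+CD34+, 3 of tdTnegCD49f+CD34+, 3 of tdT+SCA-1+ and 2 of tdTnegSCA-1+ cells, each from the cells of 2 pooled mice. The methods name antibodies against CD49f, CD34 and SCA-1 and none against CD45, the pan-leukocyte antigen.

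T cells recognize antigen through a receptor of alpha and beta or of gamma and delta chains, which signals through the CD3 chains, the kinases LCK and ZAP70 and the adaptors LAT and SLP-76. CD4 and CD8 are the coreceptors of alpha beta T cells, whereas NK cells have no rearranged receptor and are defined by genes such as Ncr1 and Eomes. Mouse epidermis normally holds gamma delta T cells with a dendritic shape (DETC), can hold resident CD8 T cells, and both types use the integrin CD103, encoded by Itgae, to bind E-cadherin on keratinocytes. Cd4-Cre is active in thymocytes that carry CD4 and CD8 together, so alpha beta T cells of either later lineage are labelled by it. The question put to the 41 genes was whether they were higher in tdT+ than in tdTneg cells, in which population, and which of these lymphocyte types the higher genes belong to.

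The summed level of 6 keratinocyte genes was 37504 to 40968 CPM (normalized counts per 1000000) in tdT+SCA-1+ and 26025 to 26287 CPM in tdTnegSCA-1+ libraries, without overlap. It was 20087 to 25051 CPM in tdT+CD49f+CD34+ and 26859 to 29112 CPM in tdTnegCD49f+CD34+ libraries, again without overlap and with the tdT+ libraries lower. Depth was between 17409131 and 46542177 counts per library. A row outside the Ensembl genes is not described in the sources used here. In counts per 1000000 without normalization, it was at 133 to 307 in 5 of the 6 tdT+ libraries and at 2.54 to 4.89 in the tdTneg libraries. On the same scale it was at 2.05 in the remaining tdT+ library, labelled tdT+CD49f+CD34+ replicate 2, and stood with the tdTneg libraries there. By their sum over the 41 listed genes, this library stood with the tdT+ libraries, at 304 CPM against 124 to 140 CPM in the tdTnegCD49f+CD34+ libraries. Rora gave 137 CPM of the 304. Cd3e was at 7.87 CPM against 0.317 to 0.829 CPM, and 10 gamma delta T cell genes summed to 42.8 against 3.75 to 6.67 CPM. By 10 alpha beta T cell genes the library stood with the tdTneg libraries, at 12.7 against 10.8 to 13.9 CPM. Whether the label is right was not tested, and calls lost without this library are named below. The tdTnegSCA-1+ libraries held endothelial RNA, with 6 endothelial genes summing to 1535 and 1692 CPM against 31.2 to 62.8 CPM in tdT+SCA-1+ libraries. All 11 myeloid and Langerhans cell genes other than Epcam had over 3 counts in each SCA-1+ library, summing in the tdTneg libraries to 613 and 1199 CPM and in the tdT+ libraries to 377 to 469 CPM. The same endothelial genes reached 403 CPM in tdT+CD49f+CD34+ replicate 2. The part of these other cells in the results below was not tested. In sorted bulk samples, fewer cells of a type and less RNA per cell cannot be told apart.

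For 39 of the 41 genes the highest of the 11 libraries was a tdT+SCA-1+ library, the exceptions being Txk and Klre1, and for 27 it was replicate 2. The share of all genes with their highest library in that group was not computed. The summed level of the 41 was 1090 to 1985 CPM in tdT+SCA-1+, 391 to 484 CPM in tdTnegSCA-1+, 224 to 304 CPM in tdT+CD49f+CD34+ and 124 to 140 CPM in tdTnegCD49f+CD34+ libraries. Those ranges did not overlap. A total of 39 genes passed the filter on low counts, and Ctla4 (at most 11 counts in a library) and Eomes (at most 9) did not.

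**Figure D1:**
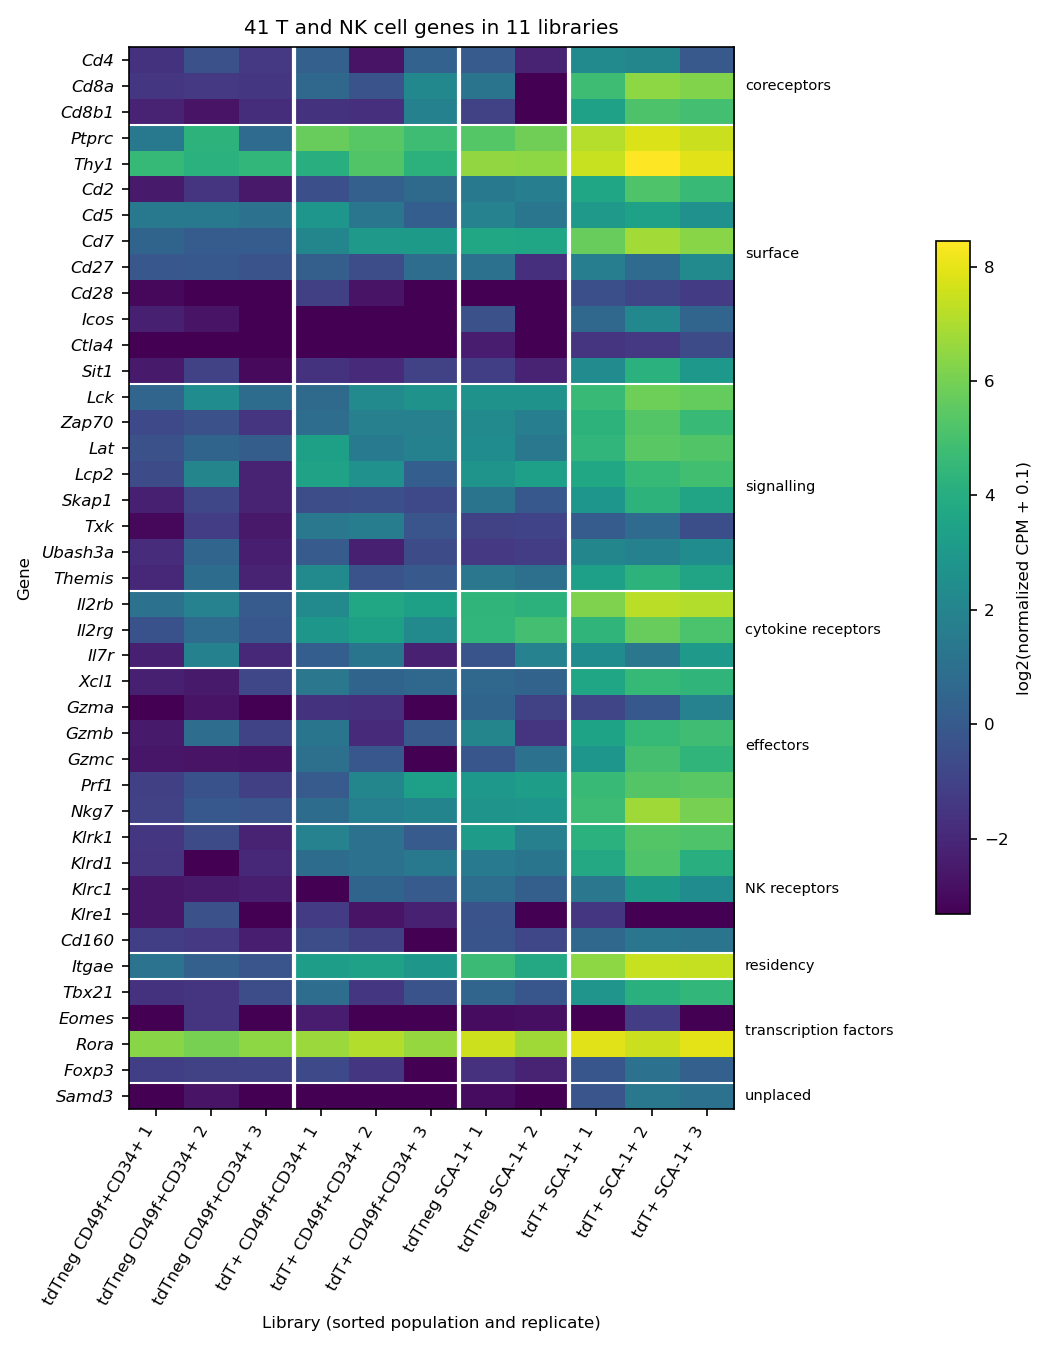
Level of each of the 41 genes (rows, by role) in the 11 libraries (columns, by population and replicate), as log2 of normalized CPM plus 0.1. The brightest cell of 39 of the 41 rows lies in one of the 3 tdT+SCA-1+ columns on the right, and Cd8a and Cd8b1 are at 0 in tdTnegSCA-1+ replicate 2.

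Compared per kilobase of exon, Thy1, Nkg7 and Cd7 led in tdT+SCA-1+ cells with 84.5 ± 29.4, 73.0 ± 45.3 and 71.9 ± 25.7 CPM per kb (SD, n = 3). Their ranges overlapped. Thy1 was above Cd7 in 3 of the 3 libraries, and Nkg7 was above Cd7 in 1. Xcl1 (36.0 ± 11.4), Itgae (31.1 ± 10.8) and Il2rb (27.5 ± 9.33 CPM per kb) followed with overlapping ranges, and in this order in each of the 3 libraries. Cd8a and Cd8b1 stood at 17.1 ± 8.44 and 17.3 ± 8.88 CPM per kb, and Cd4 at 0.794 ± 0.504 CPM per kb. The lowest levels were those of Eomes (0.0273 ± 0.0473) and Klre1 (0.0254 ± 0.0440 CPM per kb). In tdTnegCD49f+CD34+ cells the order differed, and Thy1 and Rora, at 7.07 and 5.99 CPM per kb on average, were the only genes above 1 CPM per kb. Rora encodes a nuclear receptor of ILC2 and other lymphocytes and was at 65.7 CPM or more in every library of the series. In the tdTnegCD49f+CD34+ libraries, which held 12 to 34 Cd3e counts, Rora was at 65.7 to 87.9 CPM. Which cells this RNA came from was not tested.

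**Figure D2:**
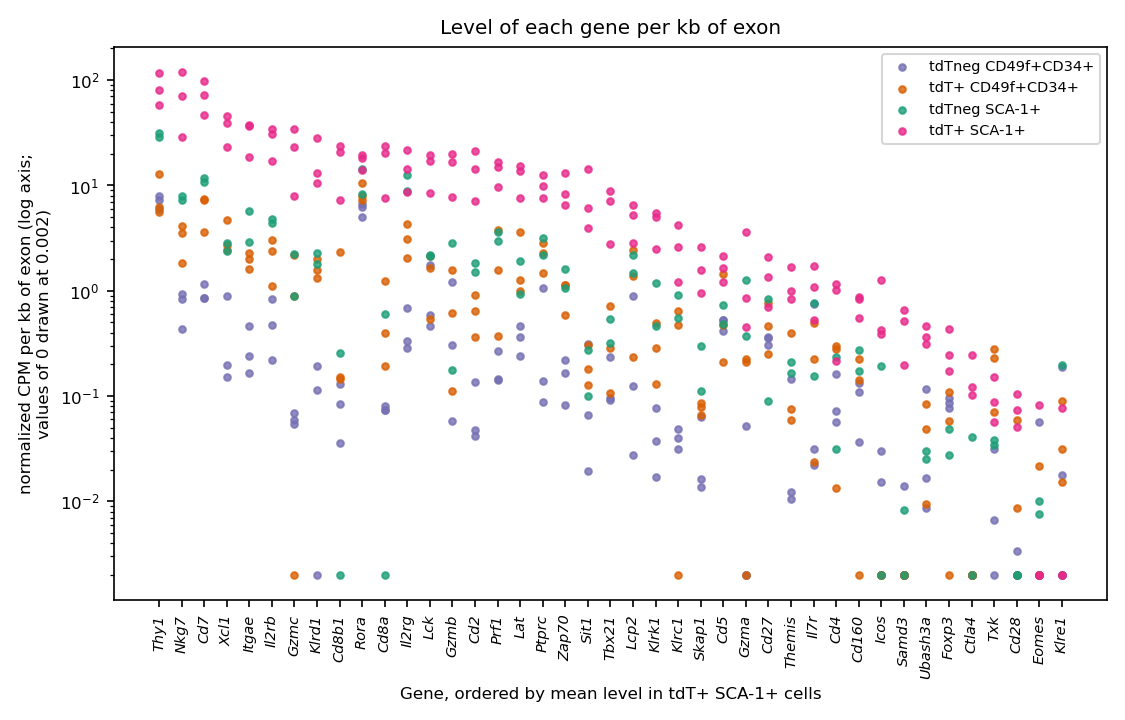
Normalized CPM per kb of exon on a log axis for each gene, with 1 point per library coloured by group and values of 0 drawn at 0.002. Genes are ordered by their mean in tdT+SCA-1+ cells, from Thy1 at 84.5 to Klre1 at 0.0254 CPM per kb.

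Comparing tdT+ with tdTneg cells within the SCA-1+ population, 9 of the 39 tested genes were higher by edgeR's quasi-likelihood test, and none was lower. A gene counts as called where its p, adjusted over all 20307 genes tested, is below 0.05 and its log2 fold change is past 1 in size. Of all genes tested, 0.251% were called higher and 2.06% lower. The 9 were the surface genes Cd2, Cd7 and Sit1, the signaling genes Zap70 and Lat, the cytokine receptor gene Il2rb, the effector genes Xcl1 and Nkg7, and Itgae. Their folds ran from 2.58 to 5.39 on the log2 scale. A further 16 genes, 25 in all, were higher at an unadjusted p under 0.05, which 5.17% of all genes were. Every tdT+ library was above both tdTneg libraries for 32 of the 39 genes, against 15.8% of all genes. The median log2 fold change of the 39 was 2.78, and that of all genes 0.04. The call rests on few libraries: without tdTnegSCA-1+ replicate 2 none of the 39 was called (17 were higher at an unadjusted p under 0.05), without tdTnegSCA-1+ replicate 1 there were 2, without tdT+SCA-1+ replicate 2 or replicate 3 there was 1 each, and without tdT+SCA-1+ replicate 1 or tdTnegCD49f+CD34+ replicate 1 there were 5 each. Over 11 omissions of 1 library each, the call of Cd7 was lost in 2, Itgae in 3, Zap70 and Nkg7 in 4, Xcl1 in 5, Cd2, Lat and Il2rb in 7 and Sit1 in 8. With the replicate number as a block 5 of the 9 stayed called, whereas DESeq2 called 21. Over all genes 470 were called in the main fit, 404 with the block and 1230 with DESeq2.

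The genes of the CD8 coreceptor were far apart between tdT+ and tdTneg SCA-1+ cells. Cd8a, the alpha chain of CD8, was at 1037, 1513 and 1425 counts (27.6, 85.9 and 73.5 CPM) in the tdT+SCA-1+ libraries and at 69 and 0 counts (2.18 and 0 CPM) in the tdTnegSCA-1+ libraries. Cd8b1, the beta chain, was at 401, 626 and 594 against 12 and 0 counts. Both genes were separated between the groups without overlap, and both were near 0 in tdTnegSCA-1+ replicate 2. The log2 fold changes were 5.80 ± 1.43 (SE) for Cd8a and 6.98 ± 1.73 for Cd8b1, with adjusted p of 0.0714 and 0.0729 (edgeR), so neither was called. These folds rest on the few tdTneg counts, and in 10 omissions of 1 library they ran from 4.78 to 6.16 for Cd8a and from 6.01 to 7.35 for Cd8b1. Omission of tdTnegSCA-1+ replicate 1 left a tdTneg group with 0 counts of both, and no fold is given. DESeq2 gave adjusted p of 0.000608 for Cd8a and 0.000112 for Cd8b1. Cd4 was at 174, 72 and 17 counts in tdT+SCA-1+ and at 30 and 3 counts in tdTnegSCA-1+ libraries, and these ranges overlapped. In CPM, Cd4 was at 4.64, 4.09 and 0.877 against 0.949 and 0.126.

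Among the surface genes, Cd7, an immunoglobulin-like molecule of T and NK cells, was at 52.4, 111 and 81.5 CPM in tdT+SCA-1+ and at 13.2 and 12.2 CPM in tdTnegSCA-1+ libraries (log2 fold change 2.68 ± 0.40, adjusted p = 0.00789, edgeR). Cd2, an adhesion receptor, was at 12.3, 36.6 and 24.8 against 2.63 and 3.18 CPM (3.08 ± 0.66, adjusted p = 0.0395, edgeR). Sit1, which encodes a transmembrane adaptor of the T cell receptor pathway, was at 4.98, 18.2 and 7.64 against 0.348 and 0.126 CPM (5.39 ± 1.21, adjusted p = 0.0486, 0.0866 with the replicate block and 0.0524 with RLE size factors, edgeR). Without tdT+CD49f+CD34+ replicate 2 the calls of Cd2 and Sit1 were lost, with adjusted p of 0.0522 and 0.0587 (edgeR). For these 3 genes the tdT+ libraries were all higher, with replicate 2 the highest.

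Thy1 was at 173, 347 and 239 against 93.7 and 86.5 CPM, with a log2 fold change of 1.49 ± 0.38 that missed the threshold (adjusted p = 0.0834, edgeR). Ptprc, the gene of CD45, was at 141, 229 and 180 against 40.4 and 58.5 CPM and also missed it. Myeloid cells carry CD45 as well, and the myeloid genes given above were higher in the tdTneg libraries. The remaining surface genes were low. Cd5 stayed at or below 10.5 CPM, Cd27 at or below 4.85 CPM and Icos at or below 4.37 CPM in every library. Cd28 was at 24, 8 and 6 counts against 0 in both tdTnegSCA-1+ libraries, at least 9.43-fold higher against a floor of 3 counts over the group. Ctla4 was at 9, 5 and 11 counts against 3 and 0.

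Each of the 8 signaling genes was above both tdTnegSCA-1+ libraries in each tdT+SCA-1+ library, and 2 passed the threshold. Zap70, the kinase that binds the phosphorylated CD3 chains, was at 19.4, 39.0 and 24.7 against 4.81 and 3.18 CPM (2.79 ± 0.53, adjusted p = 0.0260, edgeR). Lat, the adaptor that ZAP70 phosphorylates, was at 21.2, 42.5 and 37.7 against 5.25 and 2.56 CPM (3.11 ± 0.66, adjusted p = 0.0395, and 0.0739 with the replicate block, edgeR). Lck, the kinase that starts the cascade, was at 938, 1002 and 969 against 200 and 154 counts and did not reach the threshold (2.78 ± 0.73, adjusted p = 0.0926, edgeR). Skap1, an adaptor for integrin activation, was at 7.06, 19.3 and 11.8 against 2.22 and 0.838 CPM. It (3.05 ± 0.80) and Ubash3a, a phosphatase-like regulator (3.77 ± 1.27), likewise had only an unadjusted p under 0.05. Lcp2, the gene of SLP-76, which myeloid cells also express, was at 12.7, 23.4 and 29.4 against 6.65 and 9.72 CPM. Themis was at 9.81 to 19.6 against 2.47 and 1.93 CPM, and Txk was at or below 3.05 CPM in every library, with its highest value in tdT+CD49f+CD34+ replicate 2.

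A separate list held 30 other genes of T cell receptor signaling, of which 29 were tested. In the same comparison 6 were called higher and 1 lower, with a median log2 fold change of 2.00. Of all genes, 0.251% were called higher and 2.06% lower. The list genes called higher included Cd3d, Cd3e, Grap2, Cd96 and Sh2d2a, and the one called lower was Fyn, a kinase that many cell types express. Cd3e, the epsilon chain of CD3, was at 47.1, 117 and 95.5 against 9.78 and 12.6 CPM (2.95 ± 0.52, adjusted p = 0.0174, edgeR). Fyn fell by 1.37 ± 0.19 on the log2 scale (adjusted p = 0.00601, edgeR).

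Il2rb, the beta chain shared by the IL-2 and IL-15 receptors, was at 72.5, 148 and 134 against 20.8 and 18.7 CPM (2.58 ± 0.58, adjusted p = 0.0493, 0.0560 with the replicate block and 0.0559 with RLE size factors, edgeR). Il2rg, the common gamma chain, was at 20.8, 52.3 and 34.5 against 21.3 and 30.2 CPM, so that the ranges overlapped. Il2rg is also expressed in myeloid cells, and 30.5% of its exon bases lie in the overlapping gene Gm20489, which had 0 counts. Il7r was at 5.12, 2.44 and 8.05 against 0.728 and 3.56 CPM, again with overlap.

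Among the effector genes, Nkg7, a membrane protein of cytotoxic granules, was at 26.3, 109 and 64.8 CPM in tdT+SCA-1+ and at 6.61 and 7.25 CPM in tdTnegSCA-1+ libraries (3.27 ± 0.62, adjusted p = 0.0253, edgeR). Xcl1, which encodes the chemokine lymphotactin, was at 12.2, 23.7 and 20.5 against 1.49 and 1.26 CPM (3.77 ± 0.77, adjusted p = 0.0339, and 0.0619 with the replicate block, edgeR). In Xcl1, 18.7% of the exon bases overlap Gm20743 on the opposite strand, and the kit does not mark strand. Prf1, the gene of the pore-forming protein perforin, was at 25.2, 38.6 and 42.9 against 7.72 and 9.42 CPM and had only an unadjusted p under 0.05 (2.05 ± 0.76, adjusted p = 0.231, edgeR). The granzyme genes varied more. Gzmb was at 11.1, 23.8 and 28.5 against 4.05 and 0.251 CPM, Gzmc at 7.14, 30.9 and 20.8 against 0.791 and 2.01 CPM, and Gzma at 0.453, 0.852 and 3.61 against 1.27 and 0.377 CPM. The ranges of Gzma overlapped. By edgeR, Gzmb (3.29 ± 1.47, adjusted p = 0.340) and Gzmc (3.81 ± 1.29, adjusted p = 0.189) had only an unadjusted p under 0.05. Without tdTnegSCA-1+ replicate 1 the log2 fold change of Gzmb was 6.36, and without replicate 2 it was 2.33. Reads of Gzmb and Gzmc, which are close paralogs, may be split between them.

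Promoters of the effector genes are shown because Nkg7 and Xcl1 were called here and Prf1 over both populations, and because binding motifs of T and NK cell regulators can be read in them. Capitals mark the letters TGTGGT (RUNX core), GGAAGT (ETS core) and GTGTGA (T-box core) on either strand, which do not overlap one another in these runs. The sequences are from RefSeq on GRCm38.p6, 5′ to 3′ on the strand of the gene, and end before the first annotated exon of any gene.
Xcl1, chr1:164935566-164935772, minus strand: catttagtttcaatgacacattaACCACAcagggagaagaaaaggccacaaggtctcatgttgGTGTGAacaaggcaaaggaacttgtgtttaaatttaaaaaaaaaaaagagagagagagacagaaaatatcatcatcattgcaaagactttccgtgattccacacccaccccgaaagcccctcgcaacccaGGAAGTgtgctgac
Nkg7, chr7:43436888-43437072, plus strand: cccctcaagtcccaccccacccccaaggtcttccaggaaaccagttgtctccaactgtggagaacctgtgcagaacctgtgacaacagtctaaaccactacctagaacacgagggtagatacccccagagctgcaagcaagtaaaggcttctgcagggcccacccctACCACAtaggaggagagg
Prf1, chr10:61297586-61297832, plus strand: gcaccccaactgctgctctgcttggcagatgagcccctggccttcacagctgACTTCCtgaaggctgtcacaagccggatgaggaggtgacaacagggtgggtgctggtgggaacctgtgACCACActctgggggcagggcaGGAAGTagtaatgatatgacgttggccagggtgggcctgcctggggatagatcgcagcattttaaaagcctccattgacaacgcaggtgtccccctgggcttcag
In the printed runs Xcl1 held 1 match of each motif, Nkg7 a RUNX match, and Prf1 a RUNX match between 2 ETS matches. Nkg7 also holds the T-box letters in its 250 bases, beyond the end of the printed run. The promoter table matched 30 of the 41 genes with 39 promoters. Over 250 bases upstream of the start, 38.5% of these promoters held the RUNX letters, 38.5% the ETS letters and 28.2% the T-box letters. The shares of all 32851 promoters were 14%, 19.7% and 12.3%. Some genes have several promoters that overlap, so 1 match can be counted for more than 1 promoter. By gene, 14, 12 and 9 of the 30 held the RUNX, ETS and T-box letters, and the share of all genes was not computed. A match describes letters in this window and is not a measured binding site.

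The NK receptor genes were less uniform. Klrk1, the gene of NKG2D, was at 17.9, 39.6 and 36.4 against 8.61 and 3.35 CPM, and Klrd1, the gene of CD94, at 13.5, 36.3 and 16.7 against 2.91 and 2.30 CPM. By edgeR, Klrk1 (2.39 ± 0.75, adjusted p = 0.153) and Klrd1 (3.09 ± 0.90, adjusted p = 0.127) had an unadjusted p under 0.05 without being called. Klrc1, which encodes the inhibitory NKG2A chain, was at 2.42, 8.40 and 5.16 against 1.80 and 1.09 CPM, and Cd160 at 1.47, 2.33 and 2.22 against 0.728 and 0.461 CPM. Klre1 was at 10, 0 and 0 counts in tdT+SCA-1+ and at 22 and 0 counts in tdTnegSCA-1+ libraries.

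Itgae was at 85.7, 173 and 169 CPM in tdT+SCA-1+ libraries and at 26.1 and 13.4 CPM in tdTnegSCA-1+ libraries (2.85 ± 0.49, adjusted p = 0.0158, edgeR). Of the transcription factor genes, Tbx21, the gene of T-bet, which drives type 1 and cytotoxic programs, was at 6.85, 17.7 and 22 against 1.33 and 0.796 CPM (3.86 ± 0.90, adjusted p = 0.0576, edgeR). Eomes, its NK and CD8 T cell relative, was at 0, 6 and 0 against 1 and 1 counts. Foxp3, the factor of regulatory T cells, was at 30, 35 and 22 against 7 and 3 counts (2.87 ± 1.28, unadjusted p = 0.0494, edgeR). Foxp3 shares exon bases with 4 other genes, among them Flicr, so its few counts are uncertain. Samd3, whose role is not placed here, was at 28, 44 and 38 against 1 and 0 counts, and Rora was at 239, 183 and 252 against 189 and 108 CPM. By edgeR, Samd3 (6.33 ± 1.89, adjusted p = 0.156) and Rora (0.60 ± 0.26, adjusted p = 0.329) were also not called. The log2 fold change of Rora was 1.06 without tdTnegSCA-1+ replicate 1 and 0.21 without replicate 2.

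**Figure D3:**
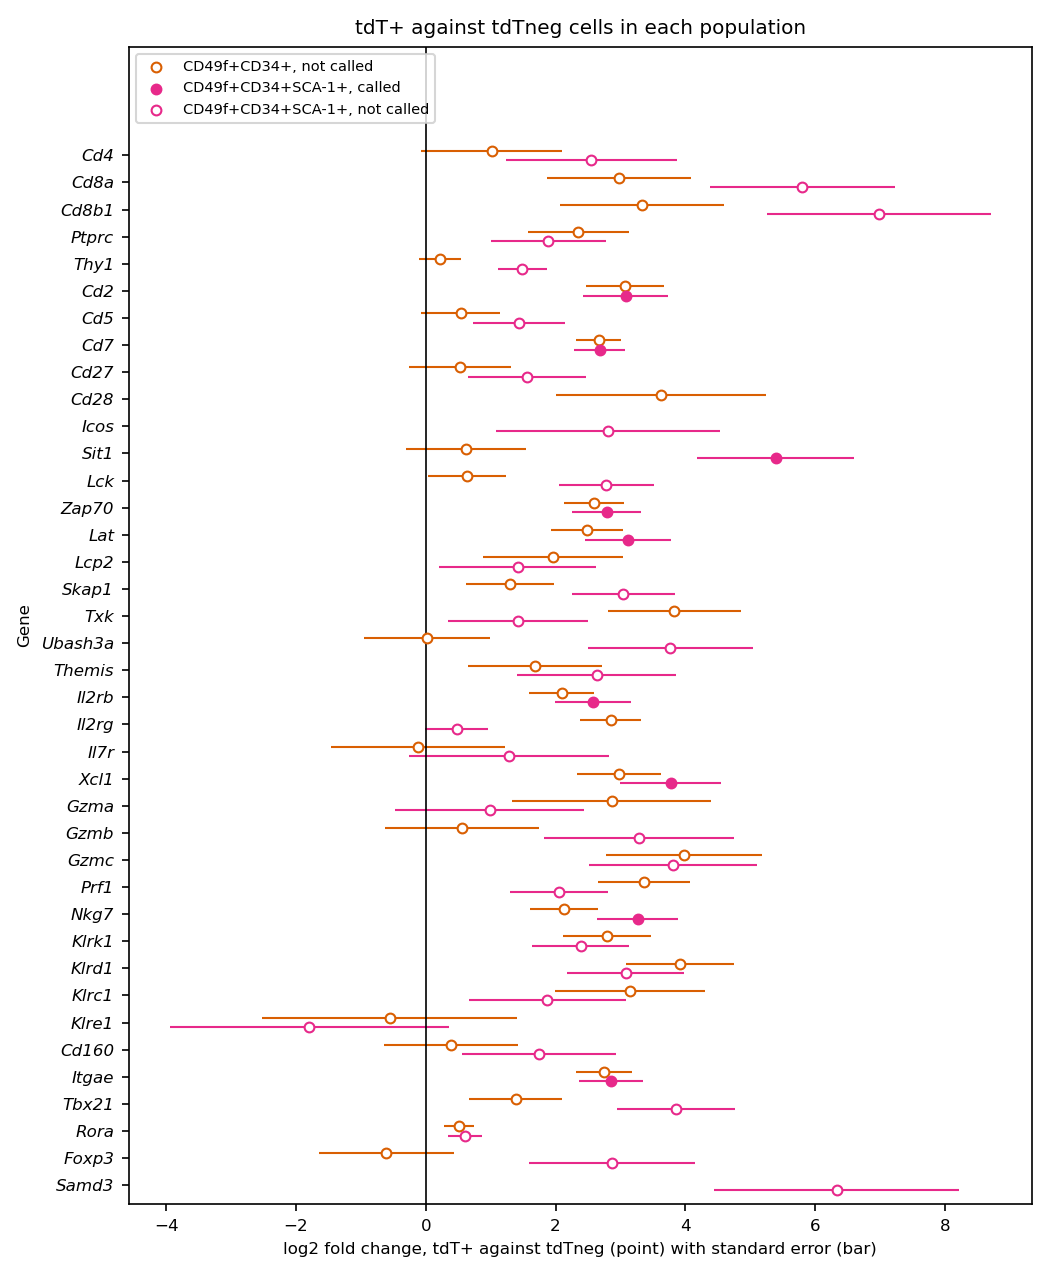
Log2 fold change of tdT+ over tdTneg cells (point) with its standard error (bar) in CD49f+CD34+ (orange) and SCA-1+ cells (pink), with filled points for genes called by edgeR. Folds against a group at 0 counts (Cd28 in SCA-1+, Icos and Samd3 in CD49f+CD34+ cells) are left out, and Cd8a and Cd8b1 in SCA-1+ cells, at 5.80 and 6.98, are open points because neither was called.

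In CD49f+CD34+ cells none of the 39 tested genes was called between tdT+ and tdTneg cells. Of all genes, 0.00985% were called higher and 0% lower. At an unadjusted p under 0.05, 18 of the 39 were higher, against 4.56% of all genes, and none was lower, against 3.86%. Without replicate 2 of tdT+CD49f+CD34+ these counts were again 0 and 18. The median log2 fold change was 2.10, against -0.03 for all genes. Every tdT+ library was above every tdTneg library for 18 of the 39 genes and for 5.07% of all genes. Other settings moved this count, with 14 genes called by DESeq2, 12 when every gene with at least 1 count was kept, and 1, Il2rg, with the replicate block. Over all genes 2 were called in the main fit, and 377, 166 and 4 under these settings. Omission of 1 library gave 1 call, Cd7 without tdT+CD49f+CD34+ replicate 1 or tdT+SCA-1+ replicate 1, and Ptprc without tdTnegCD49f+CD34+ replicate 2.

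Cd7 was at 4.12, 8.25 and 8.38 CPM in tdT+CD49f+CD34+ and at 1.30, 0.978 and 0.976 CPM in tdTnegCD49f+CD34+ libraries (2.66 ± 0.35, adjusted p = 0.0547, edgeR). Itgae was at 9.11, 10.4 and 7.33 against 2.11, 1.11 and 0.756 CPM (2.75 ± 0.43, adjusted p = 0.113, edgeR). Il2rg was at 7.34, 10.3 and 4.90 against 0.682, 1.64 and 0.805 CPM (2.85 ± 0.47, adjusted p = 0.113, and 2.90 with 0.0499 under the replicate block, edgeR). All 3 were free of overlap. By edgeR, Zap70 (2.59 ± 0.46, adjusted p = 0.139), Lat (2.48 ± 0.56, adjusted p = 0.223), Cd2 (3.07 ± 0.60, adjusted p = 0.174) and Il2rb (2.10 ± 0.50, adjusted p = 0.234) had an unadjusted p under 0.05. The same held for the effector and receptor genes Xcl1 (2.98 ± 0.65, adjusted p = 0.209), Nkg7 (2.13 ± 0.53, adjusted p = 0.254), Prf1 (3.36 ± 0.70, adjusted p = 0.198), Klrk1 (2.79 ± 0.68, adjusted p = 0.245) and Klrd1 (3.92 ± 0.83, adjusted p = 0.199).

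The CD8 genes were uneven among the tdT+CD49f+CD34+ libraries. Cd8a was at 32, 13 and 81 counts against 13, 11 and 11 in tdTnegCD49f+CD34+ libraries (2.97 ± 1.11, adjusted p = 0.507, edgeR), and the lowest tdT+ library in CPM, replicate 2 at 0.696, was still above the highest tdTneg library at 0.291. Cd8b1 was at 5, 4 and 63 counts against 6, 2 and 8, so that replicate 3 alone stood out (3.33 ± 1.27, adjusted p = 0.516, edgeR). Without that library the log2 fold change was 0.80 for Cd8b1 and 1.95 for Cd8a. Cd4 was at 25, 1 and 22 against 11, 25 and 12 counts. By edgeR, Txk (3.83 ± 1.03, adjusted p = 0.323), Gzmc (3.97 ± 1.20, adjusted p = 0.384) and Klrc1 (3.15 ± 1.16, adjusted p = 0.504) also had an unadjusted p under 0.05, each with few counts. Icos and Samd3 were at 0 in all 3 tdT+CD49f+CD34+ libraries, and tdTneg libraries held at most 5 and 2 counts of them. Ctla4 was at 0 in all 6 CD49f+CD34+ libraries, which in the tdT+ group allows up to 3 counts over the group.

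Ptprc was at 52.0, 41.6 and 27.3 CPM in tdT+CD49f+CD34+ libraries and at 2.56, 19.5 and 1.61 CPM in tdTnegCD49f+CD34+ libraries, with an unadjusted p of 0.0128 (edgeR, 2.35 ± 0.78). The log2 fold change was 4.27 without tdTnegCD49f+CD34+ replicate 2, where Ptprc was called. The macrophage gene Csf1r was at 33.4, 69.3 and 0.276 CPM in the first group and at 1.22, 31.7 and 0.439 CPM in the second, so tdTneg replicate 2 was the highest of its group for both genes, and tdT+ replicate 3 the lowest of its own. The 11 myeloid genes without Epcam summed to 69.5 to 606 CPM in tdT+ and 18.8 to 130 CPM in tdTneg libraries. Lcp2 was at 11, 6.16 and 1.05 against 0.558, 4.02 and 0.122 CPM and was highest in the same tdTneg library. Cd3e was lowest in that library, at 3.49, 7.87 and 6.39 against 0.661, 0.317 and 0.829 CPM in the same order of groups. The part of myeloid cells in the Ptprc and Lcp2 values was not tested.

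Averaged over both populations, tdT+ cells were higher than tdTneg cells for 15 of the 39 genes (0.458% of all genes were called higher) and lower for none (1.03%). At an unadjusted p under 0.05, 27 were higher, against 5.05% of all genes, and none was lower, against 7.98%. Besides Cd2, Cd7, Zap70, Lat, Il2rb, Xcl1, Nkg7 and Itgae, these were Cd8a, Cd8b1, Il2rg, Prf1, Klrk1, Klrd1 and Tbx21. Cd7 had the smallest adjusted p (2.67 ± 0.27, 0.00281, edgeR), followed by Itgae (2.80 ± 0.33, 0.00432, edgeR). Cd8a (4.39 ± 0.90, adjusted p = 0.0397, and 0.0682 with the replicate block, edgeR) and Cd8b1 (5.16 ± 1.07, 0.0415, and 0.0592 with the block, edgeR) had the largest folds of the 15. In the 10 omissions of 1 library that left counts in each group, their folds ran from 3.87 to 4.6 and from 3.89 to 5.41. Tbx21 also lost its call with the block (adjusted p = 0.0703, edgeR), with RLE size factors (0.0505, edgeR) and with the voom weights (0.179, limma). The voom weights also ended the calls of Cd8a (0.0708), Cd8b1 (0.0999) and Nkg7 (0.0644, all limma). Over 11 omissions the call was lost in 10 for Tbx21 (kept without tdT+CD49f+CD34+ replicate 2), in 8 for Cd8b1, Il2rg and Klrk1, in 7 for Cd8a and Prf1, in 4 for Klrd1, in 2 or fewer for Cd2, Xcl1, Zap70, Lat, Il2rb and Nkg7, and in 0 for Cd7 and Itgae. The count fell to 2 without tdTnegSCA-1+ replicate 2, to 5 without tdTnegSCA-1+ replicate 1, to 9 without tdTnegCD49f+CD34+ replicate 1 or tdT+SCA-1+ replicate 3, and to 8 without tdTnegCD49f+CD34+ replicate 3 or tdT+SCA-1+ replicate 2. It was 13 without tdT+CD49f+CD34+ replicate 2, where Il2rg and Klrk1 lost their calls (adjusted p of 0.0686 and 0.0512, edgeR). The remaining called genes by edgeR were Cd2 (3.07 ± 0.45, adjusted p = 0.00883), Zap70 (2.69 ± 0.36, adjusted p = 0.00574), Lat (2.80 ± 0.44, adjusted p = 0.0114), Il2rb (2.34 ± 0.38, adjusted p = 0.0141) and Il2rg (1.66 ± 0.34, adjusted p = 0.0392), together with Xcl1 (3.38 ± 0.51, adjusted p = 0.00988), Nkg7 (2.7 ± 0.41, adjusted p = 0.00988) and Prf1 (2.71 ± 0.53, adjusted p = 0.0318) and with Klrk1 (2.59 ± 0.51, adjusted p = 0.0331), Klrd1 (3.50 ± 0.63, adjusted p = 0.0217) and Tbx21 (2.62 ± 0.57, adjusted p = 0.0490). Not called, but with an unadjusted p under 0.05 by edgeR, were Ptprc (2.12 ± 0.59, adjusted p = 0.131), Thy1 (0.85 ± 0.25, adjusted p = 0.147), Sit1 (3.01 ± 0.73, adjusted p = 0.0790), Lck (1.71 ± 0.46, adjusted p = 0.117), Skap1 (2.17 ± 0.52, adjusted p = 0.0727) and Txk (2.62 ± 0.76, adjusted p = 0.143), and further Ubash3a (1.89 ± 0.77, adjusted p = 0.328), Themis (2.16 ± 0.80, adjusted p = 0.273), Gzmc (3.89 ± 0.89, adjusted p = 0.0606), Klrc1 (2.51 ± 0.85, adjusted p = 0.223) and Rora (0.56 ± 0.18, adjusted p = 0.184). Without tdTnegCD49f+CD34+ replicate 2 the log2 fold change of Themis was 3.28 and it was called. The last of these 27 was Cd28, which had 0 counts in the tdTnegSCA-1+ libraries.

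Between the populations, 22 of the 39 genes were higher in tdT+SCA-1+ than in tdT+CD49f+CD34+ cells, against 2.91% of all genes, and none was lower, against 5.54%. Every tdT+SCA-1+ library was above every tdT+CD49f+CD34+ library for 33 of the 39, and 15.4% of all genes did so. The median log2 fold change was 3.36. Nkg7 (4.52 ± 0.56, adjusted p = 0.00115), Cd2 (4.46 ± 0.60, 0.00169), Itgae (3.99 ± 0.44, 0.000676), Cd7 (3.56 ± 0.35, 0.000438) and Thy1 (3.36 ± 0.36, 0.000544, all edgeR) had the smallest adjusted p. Cd8a was called (4.82 ± 1.14, adjusted p = 0.0221, edgeR) and Cd8b1 was just short of it (4.30 ± 1.25, 0.0503, and 0.0274 with the replicate block, edgeR), with a log2 fold change of 6.83 and a call without tdT+CD49f+CD34+ replicate 3. The call of Cd8a was lost without tdT+CD49f+CD34+ replicate 1 (adjusted p = 0.0772) or replicate 2 (0.0622) and without tdT+SCA-1+ replicate 2 (0.0641) or replicate 3 (0.0618, all edgeR). Icos and Samd3, at 158 and 110 counts over the tdT+SCA-1+ libraries and 0 over the tdT+CD49f+CD34+ libraries, were at least 41.6-fold and 29.0-fold higher against a floor of 3 counts over the group. Icos lost its call with the block (adjusted p = 0.0541, edgeR), as did Rora, whose log2 fold change was 1.01 and then 0.98, and whose fold was also under the threshold of 1 with DESeq2, RLE size factors, both other filters, only the groups compared and the voom weights. With only the groups compared in the fit, Gzmc (adjusted p = 0.0534) and Prf1 (0.0508, both edgeR) were not called, nor was Gzmc with the voom weights (0.0682, limma). Without tdT+CD49f+CD34+ replicate 2 the count was 16, as it was without tdT+SCA-1+ replicate 2 or replicate 3. Besides Cd8a, the calls lost without tdT+CD49f+CD34+ replicate 2 were those of Icos (adjusted p = 0.0759), Gzmc (0.0866), Prf1 (0.0680), Klrd1 (0.0595) and Samd3 (0.0516, all edgeR). The other called signaling and surface genes by edgeR were Sit1 (5.30 ± 1.01, adjusted p = 0.00901), Lck (3.38 ± 0.64, adjusted p = 0.00878), Zap70 (3.29 ± 0.47, adjusted p = 0.00216), Lat (2.63 ± 0.55, adjusted p = 0.0136) and Skap1 (4.45 ± 0.73, adjusted p = 0.00431). The cytokine receptor and effector genes were Il2rb (3.66 ± 0.52, adjusted p = 0.00216), Il2rg (2.25 ± 0.45, adjusted p = 0.0111), Xcl1 (3.44 ± 0.64, adjusted p = 0.00802), Gzmc (4.40 ± 1.12, adjusted p = 0.0308) and Prf1 (2.85 ± 0.67, adjusted p = 0.0220), and the rest Klrk1 (3.84 ± 0.68, adjusted p = 0.00659), Klrd1 (3.40 ± 0.78, adjusted p = 0.0196), Tbx21 (4.07 ± 0.77, adjusted p = 0.00878) and Rora (1.01 ± 0.23, adjusted p = 0.0210). Not called, but with an unadjusted p under 0.05 by edgeR, were Ptprc (2.18 ± 0.77, adjusted p = 0.0899), Ubash3a (2.98 ± 1.03, adjusted p = 0.0858), Themis (2.71 ± 1.05, adjusted p = 0.117) and Gzma (3.42 ± 1.43, adjusted p = 0.138), and further Gzmb (4.24 ± 1.31, adjusted p = 0.0612), Klrc1 (2.85 ± 1.09, adjusted p = 0.113) and Cd160 (2.61 ± 1.07, adjusted p = 0.133).

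In tdTneg cells 11 of the 39 genes were higher in SCA-1+ than in CD49f+CD34+ cells, against 3.29% of all genes, and none was lower, against 1.45%. The groups did not overlap for 25 of the 39 and for 19.9% of all genes. The 11 were Thy1, Cd2, Cd7, Zap70, Il2rb, Il2rg, Prf1, Nkg7, Klrk1, Klrd1 and Itgae, each of which was also called between the populations in tdT+ cells. Itgae had a log2 fold change of 3.89 ± 0.47 (adjusted p = 0.00471, edgeR) and Il2rg of 4.62 ± 0.52 (0.00471, edgeR). The others by edgeR were Thy1 (2.09 ± 0.36, adjusted p = 0.0127), Cd2 (4.44 ± 0.65, adjusted p = 0.00776), Cd7 (3.54 ± 0.37, adjusted p = 0.00409), Zap70 (3.09 ± 0.49, adjusted p = 0.0104) and Il2rb (3.18 ± 0.54, adjusted p = 0.0121), and further Prf1 (4.17 ± 0.75, adjusted p = 0.0147), Nkg7 (3.38 ± 0.57, adjusted p = 0.0118), Klrk1 (4.24 ± 0.74, adjusted p = 0.0130) and Klrd1 (4.23 ± 0.87, adjusted p = 0.0233). Not called, but with an unadjusted p under 0.05 by edgeR, were Ptprc (2.65 ± 0.83, adjusted p = 0.10), Xcl1 (2.65 ± 0.68, adjusted p = 0.0512), Lat (2.00 ± 0.59, adjusted p = 0.0795) and Skap1 (2.7 ± 0.73, adjusted p = 0.0602), and further Gzma (5.31 ± 1.65, adjusted p = 0.0958), Gzmc (4.57 ± 1.26, adjusted p = 0.0651), Klrc1 (4.12 ± 1.24, adjusted p = 0.0863) and Rora (0.92 ± 0.26, adjusted p = 0.0669). Cd8a was at 2.18 and 0 CPM against 0.269, 0.291 and 0.268 CPM, on both sides of it. The log2 fold change of Ptprc was 4.56, and it was called, without tdTnegCD49f+CD34+ replicate 2. With only the groups compared in the fit Klrd1 was not called (adjusted p = 0.0706, edgeR). Without tdTnegSCA-1+ replicate 1 the count was 3, and without tdTnegCD49f+CD34+ replicate 3 it was 7. The comparisons between populations use the same libraries as those between tdT+ and tdTneg cells, so their values are given side by side.

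The effect of tdT was not shown to differ between the populations for any of the 39 genes by edgeR, with 0.00985% of all genes called higher in this difference and 0.379% lower. At an unadjusted p under 0.05, the effect was larger in SCA-1+ cells for 6 genes (Thy1, Sit1, Lck, Ubash3a, Tbx21 and Samd3), against 4.77% of all genes, and smaller for Il2rg, against 7.63%. For Sit1 the difference was 4.77 ± 1.43 on the log2 scale (adjusted p = 0.202, edgeR), and for Il2rg it was -2.37 ± 0.65 (0.169, edgeR). The others by edgeR were Thy1 (1.27 ± 0.49, adjusted p = 0.330), Lck (2.14 ± 0.91, adjusted p = 0.378), Ubash3a (3.75 ± 1.54, adjusted p = 0.364) and Tbx21 (2.47 ± 1.08, adjusted p = 0.393). DESeq2 called Sit1 and Il2rg, with adjusted p of 0.0121 for Sit1 and 0.00867 for Il2rg. For Itgae the difference was 0.10, with a 95% interval from -1.29 to 1.49, so a difference of either sign is compatible with these libraries.

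The genes that define single lymphocyte types were read next, with lists that share members with the 41 genes and with each other. Of all genes, 0.251% were called higher in tdT+ cells in SCA-1+ cells, 0.00985% in CD49f+CD34+ cells and 0.458% over both populations. At an unadjusted p under 0.05 (edgeR) the shares higher were 5.17%, 4.56% and 5.05% in the same order. Of the NK list of 12 genes, 8 were tested between tdT+ and tdTneg SCA-1+ cells, where 1 was called (Nkg7), 5 had an unadjusted p under 0.05, and the median log2 fold change was 2.22. Over both populations 5 were called (Nkg7, Prf1, Klrk1, Klrd1 and Tbx21). The 4 untested genes, Ncr1, Klrb1c, Klra8 and Eomes, had few counts. Ncr1, the gene of NKp46, was at 0 in all tdT+SCA-1+ libraries and at 10 and 0 counts in tdTnegSCA-1+ libraries. Klrb1c was at 12, 2 and 3 counts in tdT+SCA-1+ libraries, and Klra8 was at 0 in them. A count of 0 in every library of a group allows up to 3 counts over the group. The NK list summed to 196 to 317 CPM in tdT+SCA-1+ libraries and to 90 and 101 CPM in tdTnegSCA-1+ libraries. Its 5 genes called over both populations are expressed by cytotoxic T cells too, and it holds Itga2, which was at 52.7 CPM or more in every library.

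Alpha beta T cell genes were present, and 2 of the 10 on the list, Trac and Trbc2, were called higher in tdT+SCA-1+ cells. Trac, the constant region of the alpha chain, was at 15.5, 35.3 and 25.9 against 1.61 and 1.34 CPM (4.11 ± 0.71, adjusted p = 0.0154, edgeR). Trbc2 was higher too (2.17 ± 0.46, adjusted p = 0.0395, edgeR), although beta chain constant regions are nearly identical and their reads may be split. Of the 10 genes, 7 had an unadjusted p under 0.05, and the median log2 fold change was 3.47. In CD49f+CD34+ cells none was called, 4 had an unadjusted p under 0.05, and the median was 2.33. Over both populations 4 were called by edgeR, namely Cd8a, Cd8b1, Trac (3.86 ± 0.47, adjusted p = 0.00432) and Trbc1 (3.03 ± 0.54, adjusted p = 0.0220).

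Gamma delta T cell genes were present too. None of their 4 receptor genes was called in SCA-1+ cells, and 3 were called over both populations. Trdc, the constant region of the delta chain, was at 53.9, 92.9 and 89.9 against 19.9 and 18.1 CPM (2.05 ± 0.71, unadjusted p = 0.0159, edgeR). Trdv4 and Tcrg-V5, the variable segments of the receptor of DETC, were at 21.1 to 31.8 against 9.65 and 5.99 CPM and at 10.2 to 18.6 against 4.02 and 4.11 CPM, and Trdv4 had an unadjusted p of 0.0780 (edgeR). Of the 10 genes of the DETC list, 3 were called (Cd7, Xcl1 and Itgae), 8 had an unadjusted p under 0.05, and the median was 2.25. In CD49f+CD34+ cells none was called, 9 had an unadjusted p under 0.05, and the median was 2.84. Over both populations 7 were called by edgeR, namely Cd7, Xcl1, Klrk1, Itgae, Trdc (2.66 ± 0.49, adjusted p = 0.0252), Tcrg-V5 (2.59 ± 0.50, adjusted p = 0.0309) and Tcrg-C1 (2.51 ± 0.45, adjusted p = 0.0224). Cxcr6 (3.52 ± 0.45, adjusted p = 0.00368, edgeR) and Itgae were the called genes of the 12 on the resident CD8 T cell list, whose median was 2.97. In CD49f+CD34+ cells 9 of the 12 had an unadjusted p under 0.05 and none was called, and over both populations 6 were called.

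None of 8 tested genes of the CD4 helper list was called by edgeR (4 with an unadjusted p under 0.05), nor of 7 regulatory T cell genes (3) or 8 ILC2 genes (2). None of the 3 lists had a called gene in CD49f+CD34+ cells (0, 2 and 0 with an unadjusted p under 0.05, edgeR) or over both populations (3, 2 and 2). DESeq2 counts were made for the 41 genes alone. Il1rl1, which defines ILC2, was at 7, 15 and 0 counts in tdT+SCA-1+ and at 18 and 123 counts in tdTnegSCA-1+ libraries, and Klrg1 was at 5, 0 and 0 against 0. Cd40lg was at 88, 122 and 139 against 9 and 0 counts, and Ifng, which CD8 and NK cells also make, at 124, 246 and 233 against 21 and 2 counts.

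Counts were also set against those of Cd3e in the same library, a scale chosen after the values were seen and described without a test. Cd8a was at 58.7 to 77.0 counts per 100 Cd3e counts in tdT+SCA-1+ libraries and at 22.3 and 0 in tdTnegSCA-1+ libraries. Cd8b1 was at 22.7 to 32.1 against 3.88 and 0, and Trac at 27.1 to 33.0 against 16.5 and 10.6. The alpha beta list as a whole was mixed. Of its 9 genes with at least 100 counts over the 5 SCA-1+ libraries, which leaves out Cd28, 4 were above both tdTneg libraries in each tdT+ library (Trac, Cd8a, Cd8b1 and Cd6), 2 were below (Cd5 and Trbc2) and 3 overlapped (Trbc1, Cd4 and Themis). The gamma delta list was mixed too, with 4 of 9 such genes below, all of them receptor genes (Trdc, Trdv4, Tcrg-V5 and Tcrg-C1), 1 above (Xcl1) and 4 overlapping, and with Klre1 left out. Of all genes with at least 100 counts over these libraries, 96.5% were below and 0.161% above on this scale, so a lower ratio is what nearly all genes showed. Trdc was at 79.1 to 114 per 100 Cd3e counts in tdT+SCA-1+ libraries and at 204 and 144 in tdTnegSCA-1+ libraries, Tcrg-V5 at 15.8 to 21.7 against 41.1 and 32.6, and Trdv4 at 22.3 to 44.8 against 98.7 and 47.5. The ranges of Trdc, Tcrg-V5 and Trdv4 did not overlap.

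Of the 35 members with at least 100 counts over the 5 SCA-1+ libraries, 7 were above both tdTneg libraries on this scale in each tdT+ library: Cd8a, Cd8b1, Sit1, Xcl1, Ubash3a, Tbx21 and Samd3. Among all 14923 genes with as many counts, the 0.161% given above were. A further 9 members were below both (Ptprc, Thy1, Cd5, Lcp2, Il2rg, Prf1, Klrc1, Rora and Cd160), as were 96.5% of all genes. The other 19 overlapped, among them Cd7, Itgae, Zap70, Lat, Lck, Nkg7, Il2rb, Klrk1, Klrd1 and both Gzmb and Gzmc. Itgae, for instance, was at 147 to 182 per 100 Cd3e counts in tdT+SCA-1+ and at 267 and 106 in tdTnegSCA-1+ libraries.

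In tdT+CD49f+CD34+ libraries, with 77 to 147 Cd3e counts each, the same ratios were less even. Cd8a was at 41.6, 8.84 and 69.8 per 100 Cd3e counts and Trdc at 130, 116 and 209. The library labelled replicate 2 had the lowest Cd8a ratio of the 3, and without it Cd8a was at 41.6 and 69.8. The tdTnegCD49f+CD34+ libraries held 12 to 34 Cd3e counts, too few for such a ratio.

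**Figure D4:**
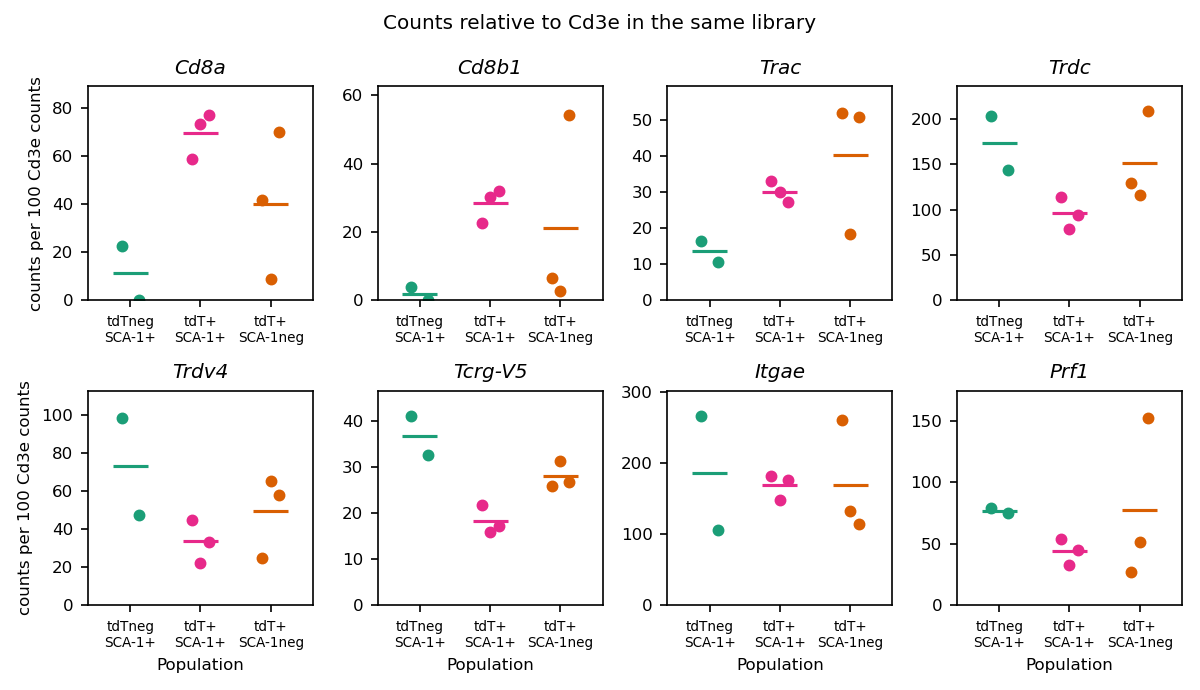
Counts per 100 Cd3e counts of the same library (vertical axes from 0) for 8 genes in tdTnegSCA-1+ (green), tdT+SCA-1+ (pink) and tdT+CD49f+CD34+ libraries (orange, labelled SCA-1neg), with 1 point per library and a bar at the mean. Cd8a, Cd8b1 and Trac are higher in each tdT+SCA-1+ than in each tdTnegSCA-1+ library, Trdc, Trdv4, Tcrg-V5 and Prf1 are lower, and Itgae overlaps.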

How the data were processed

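Total RNA of sorted cells was sequenced by the authors, who aligned reads with STAR to mm10 and counted them per gene of Ensembl release 96 with featureCounts. The deposited files hold these raw counts per gene without normalization. The strand setting of the counting is not given in the sources used here. Sample labels gave each library its group and replicate number. One undescribed row (0.000205% to 0.0307% of the counts) lies outside Ensembl and entered neither totals nor tests.

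Counts were fitted in R 4.3.3 with edgeR 4.0.16 (TMM, filterByExpr, glmQLFit and glmQLFTest, 4 groups, 11 libraries), Benjamini-Hochberg adjusted over 20307 genes. DESeq2 1.42.0 and limma 3.58.1 (voom with a weight per library, added after seeing the data) served as alternatives. Normalized CPM are TMM-scaled, exon lengths come from GENCODE gene models on GRCm38, and figures used Python 3.11.15 with pandas 2.3.3 and matplotlib 3.10.9. The fit was tested on simulated data. The median half-width of the 95% interval of a log2 fold change was 0.94 in CD49f+CD34+ and 1.02 in SCA-1+ cells between tdT+ and tdTneg cells. Replicates were pools of mice, and libraries of one number were read as sharing a pool. The deviations of same-numbered libraries from their group means had a median correlation of 0.08 in 15 pairs, ranging between -0.42 and 0.59, while 30 differently numbered pairs had -0.02. Blocked values are given where they change a call. The 41 genes and all lists were chosen with earlier results of these data known. All 41 genes are named, with folds for those called or with an unadjusted p under 0.05, unless a group was at 0 counts. The ratio to Cd3e, the myeloid sum without Epcam, the promoters shown and the defining markers named for other cell types were chosen after seeing the data. One gene of the other lists is not reported here.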

Additional observations from a re-analysis of the deposited data

How the results depend on the processing

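No fold change of a listed gene that was called or had an unadjusted p under 0.05 changed sign under any setting run. The number of the 39 tested genes called between tdT+ and tdTneg CD49f+CD34+ cells was 0 and became 14 with DESeq2, 12 when every gene with at least 1 count was kept, 3 with at least 10 counts required in every library, 3 with the voom weights and 1 with the replicate block, and it lay between 0 and 1 without 1 library. In SCA-1+ cells 9 became 21 with DESeq2, 18 with the filter of 1 count, 23 with only the groups compared in the fit, 22 with the voom weights and 5 with the replicate block, and lay between 0 and 13 without 1 library. Averaged over the populations 15 became 23 with DESeq2 and 8 with the filter of 10 counts, which left 13 of the genes to test, and lay between 2 and 19 without 1 library. Between the populations in tdT+ cells 22 became 10 with that filter, and lay between 16 and 27 without 1 library. In tdTneg cells 11 became 19 with DESeq2, 17 with the filter of 1 count and 21 with the voom weights, and lay between 3 and 15 without 1 library. For the difference in the effect of tdT, 0 became 2 with DESeq2, 1 with the filter of 1 count and 1 with the voom weights. RLE size factors and the absence of a fold threshold moved none of these counts by over 1.5 times, although RLE moved the median of all genes in the difference by -0.12 (log2). The replicate block changed no call of the 41 genes beyond those given above. The number of all genes called moved with the settings too. In CD49f+CD34+ cells it went from 2 to 377 with DESeq2, 166 with the filter of 1 count and 138 with the voom weights. In SCA-1+ cells it went from 470 to 1230 with DESeq2 and 976 with the voom weights. It was 885 there with the filter of 1 count and with only the groups compared. Averaged over the populations it went from 302 to 786 with DESeq2.

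The group of tdTnegSCA-1+ cells has 2 libraries. When 1 is left out, the lone library is assumed to vary like the other groups. Depth limits the low genes: 3 counts are 0.0645 to 0.172 CPM of a library, and floors cover counting error only. The intervals of fold changes come from the edgeR fit, which also takes in variation between libraries of a group. Counts of the same genes in sorted cells do not give the number of T cells, and the ratio to Cd3e depends on how much Cd3e RNA each cell type holds.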
